A study of Homo sapiens with 6 samples.

Results

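The genes described here encode the condensin complexes, DNA topoisomerase II alpha (TOP2A) and Ki-67 (MKI67). They were chosen by name, as the 8 condensin subunits SMC2, SMC4, NCAPD2, NCAPG, NCAPH, NCAPD3, NCAPG2 and NCAPH2 with TOP2A and MKI67, and all 10 were among the 15651 genes of the deposited table. The study sequenced RNA of MDA-MB-231, an established human cell line of triple-negative breast cancer (TNBC), in 3 libraries of cells treated with DMSO and 3 of cells treated with BRL-50481, an inhibitor of the cAMP phosphodiesterase PDE7A. The labels give BRL-50481 at 50 μM for 72 h in the treatment text and at 5 μM for 48 h in the treatment tag, and both groups are of this 1 cell line with no other agent named. The series record calls the libraries of a group biological replicates. The comparison asks how the transcripts that fold and resolve mitotic chromosomes respond to BRL-50481, and whether condensin I and condensin II respond alike.

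Condensins are ring-shaped protein complexes that extrude loops of DNA and compact chromosomes for mitosis. Both complexes hold the ATPases SMC2 and SMC4. Condensin I adds the kleisin NCAPH, which closes the ring, and the HEAT-repeat subunits NCAPD2 and NCAPG, whereas condensin II adds their counterparts NCAPH2, NCAPD3 and NCAPG2. Condensin II is nuclear throughout the cell cycle and condensin I reaches the chromosomes once the nuclear envelope breaks down. TOP2A passes DNA strands through each other so that sister chromatids can separate, and Ki-67 coats mitotic chromosomes and is a common marker of proliferating cells.

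BRL-50481-treated cells had higher mRNA levels of 9 of the 10 genes and lower levels of 0, at an adjusted p-value under 0.05 in limma's test on log2 of the normalized count plus 1, adjusted by the Benjamini-Hochberg method over all 15246 genes tested. In the same comparison, 28.9% of all genes tested were higher and 29.8% lower. The rises were largest for NCAPG (2.58-fold, 95% interval 2.40 to 2.78), MKI67 (2.53-fold, 2.24 to 2.86) and TOP2A (2.04-fold, 1.88 to 2.22), and these 3 exceeded 1 on the log2 scale, as did 5.06% of all genes. NCAPD2 (1.78-fold), SMC4 (1.49-fold) and NCAPH (1.33-fold) followed, and the condensin II subunits NCAPG2 (1.26-fold) and NCAPD3 (1.19-fold) and the shared subunit SMC2 (1.13-fold) rose least. NCAPH2 did not pass the test. The median log2 fold change of the 10 genes was 0.49, against 0.01 over all genes tested. In these bulk libraries, a larger share of cells at the stage that expresses a gene and more RNA of that gene per cell cannot be told apart.

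The libraries held 30750573 to 33446984 reads on genes, as recovered from values that were all whole multiples of the value of 1 read (tolerance 0.001). Pairs of replicates differed by more than counting noise, at 2.64 to 22.2 in chi-square over its degrees of freedom, and the highest residual SD was that of DMSO replicate 1 (0.141). The mesenchymal markers VIM, CD44, EGFR and MSN, which this line is known for, summed to 125310 to 126552 normalized counts with DMSO and 179057 to 182175 in the BRL-50481 libraries. Of the luminal markers, PGR was at most at 7.75 normalized counts. CDH1 lay between 31.7 and 48.6 with DMSO and between 93.1 and 105 with BRL-50481 (log2 fold change 1.39, adjusted p = 4.28e-05 in limma). EPCAM lay between 758 and 773 with DMSO and between 674 and 695 with BRL-50481 (log2 fold change −0.16, adjusted p = 0.0468 in limma). Their sum was 778 to 814 in all libraries, with CDH1 and EPCAM moving in opposite directions. Of the leukocyte markers, CD14 lay between 389 and 508. The part of these markers in the results that follow was not tested. ESR1, PTPRC and CD3E were not analysed here. PDE7A mRNA, the transcript of the inhibitor's target, had 406 ± 2.06 normalized counts with DMSO and 298 ± 40.6 in BRL-50481 (SD, n = 3). It was called lower (log2 fold change −0.45, adjusted p = 0.00199 in limma), which does not measure inhibition of the enzyme.

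The promoters of the genes that rose most are shown first, because genes of late cell cycle phases often carry a cell cycle genes homology region (CHR), a short element bound by the DREAM and MuvB complexes, together with CCAAT boxes bound by NF-Y. RefSeq windows on GRCh38.p14 were matched by symbol for 9 of the 10 genes, all but NCAPH2, and the 250 bases before each start were searched on both strands for CHR letters (TTTGAA or the variant TTCGAA), for CCAAT letters and for E2F letters (TTTGGCGC or else TTTCCCGC, further TTTGCCGC and also TTTCGCGC). Each of the following sequences ends at the base before the RefSeq start and runs 5′ to 3′ on the strand of the gene. Capitals mark these letters on either strand. The excerpts hold the last 200 bases for TOP2A and NCAPD2 and the last 120 for the other genes, so matches farther out are not shown. The last sequence, of NCAPG2, is shown as a condensin II gene with none of them.
TOP2A: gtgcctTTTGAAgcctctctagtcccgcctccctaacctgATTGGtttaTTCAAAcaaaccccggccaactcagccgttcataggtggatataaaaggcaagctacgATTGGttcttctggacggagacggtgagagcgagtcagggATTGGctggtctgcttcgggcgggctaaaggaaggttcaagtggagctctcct
MKI67: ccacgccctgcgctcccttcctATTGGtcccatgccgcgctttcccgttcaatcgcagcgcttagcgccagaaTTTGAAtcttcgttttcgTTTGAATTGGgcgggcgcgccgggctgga
NCAPG: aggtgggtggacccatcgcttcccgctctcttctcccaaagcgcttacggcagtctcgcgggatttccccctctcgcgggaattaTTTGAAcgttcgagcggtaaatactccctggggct
NCAPD2: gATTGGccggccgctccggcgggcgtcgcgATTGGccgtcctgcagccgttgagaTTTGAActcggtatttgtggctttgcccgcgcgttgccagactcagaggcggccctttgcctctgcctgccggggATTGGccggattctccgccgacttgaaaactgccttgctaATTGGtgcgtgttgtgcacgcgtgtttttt
SMC4: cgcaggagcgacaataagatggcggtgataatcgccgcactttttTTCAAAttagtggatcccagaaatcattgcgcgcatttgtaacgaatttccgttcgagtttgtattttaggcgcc
NCAPG2: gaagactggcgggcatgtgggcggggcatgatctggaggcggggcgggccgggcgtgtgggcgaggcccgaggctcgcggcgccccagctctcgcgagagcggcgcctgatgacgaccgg

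The excerpts lie at chr17:40417897-40418096 on the minus strand (TOP2A), chr10:128126424-128126543 on the minus strand (MKI67), chr4:17810859-17810978 on the plus strand (NCAPG), chr12:6493902-6494101 on the plus strand (NCAPD2), chr3:160399530-160399649 on the plus strand (SMC4) and chr7:158704805-158704924 on the minus strand (NCAPG2). CHR letters were found in TOP2A and MKI67 (2 matches each) and in NCAPG, NCAPD2 and 1 of the 2 windows of SMC4 (1 match each). None were found in the windows of SMC2 (2 windows), NCAPH, NCAPD3 (2 windows) or NCAPG2. The 5 genes with CHR letters were those whose log2 fold change was 0.57 or more, and the 4 matched genes without them were those at 0.41 or less, which was seen after the values were known and is given with no test. The RefSeq starts of NCAPD2, SMC4, SMC2 and NCAPD3 lie inside the spans that GENCODE gives these genes, not at their ends. CCAAT letters were found 4 times each in TOP2A and NCAPD2, 2 times each in MKI67 and in 1 window of NCAPD3, and 1 time in NCAPH. The match in TOP2A at position −244 lies before its printed excerpt. In MKI67, the CHR match at position −29 and the CCAAT match at −24, counted from −1 at the base before the start, share a base. E2F letters were found in 1 window of NCAPD3 alone among these genes.

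Such short letters are common. Of 35116 RefSeq windows, 14.3% held CHR letters, 32.0% CCAAT letters, 5.05% both and 2.79% E2F letters within the same 250 bases. Of the tested genes with a window, 36.0% of the 1504 with CHR letters were higher and 25.6% lower in BRL-50481, and 29.0% of the 9454 without them were higher and 32.5% lower, with median log2 fold changes of 0.09 and −0.003. A match describes the letters and not a bound site.

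The shared SMC subunits rose unequally. SMC2, the ATPase common to both complexes (chromosome 9 of hg38, 104094260 to 104141419), had 4898, 4192 and 4496 normalized counts in DMSO replicates 1 to 3 and 5161, 5139 and 5000 in BRL-50481 replicates 1 to 3. The groups did not overlap, but DMSO replicate 1 lay close to the lowest BRL-50481 library. The log2 fold change was 0.17 (standard error 0.0578, adjusted p = 0.0194 in limma), and the call was lost without DMSO replicate 2 or 3 or without BRL-50481 replicate 1 or 2, with adjusted p-values of 0.0610 to 0.0739 in limma. SMC4, its partner ATPase (chromosome 3, 160399274 to 160434954), had 6686, 6308 and 6731 normalized counts with DMSO and 10001, 9638 and 9720 in BRL-50481, a log2 fold change of 0.57 with a standard error of 0.0463 (limma, adjusted p = 3.64e-07). Every BRL-50481 library was far above every DMSO library. Within a library, the log2 ratio of SMC4 to SMC2 went from 0.54 ± 0.0791 in DMSO to 0.94 ± 0.0286 in BRL-50481 (SD, 3 libraries per group).

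All 3 subunits particular to condensin I rose, over a wide range (median log2 fold change 0.83). NCAPG, a HEAT-repeat subunit that contacts DNA (chromosome 4, 17810979 to 17844865), had 2322, 2192 and 2334 normalized counts with DMSO and 5884, 5871 and 5930 in BRL-50481. The libraries of each group lay close together, and the log2 fold change of 1.37 with a standard error of 0.0488 (limma, adjusted p = 5.97e-10) ranked 410 among the 15246 genes. NCAPD2, the second HEAT-repeat subunit (chromosome 12, 6493356 to 6531955), had 3021, 2839 and 2783 normalized counts with DMSO and 4987, 5282 and 5101 in BRL-50481, a log2 fold change of 0.83 with a standard error of 0.0516 (limma, adjusted p = 3.94e-08). NCAPH, the kleisin of condensin I (chromosome 2, 96335766 to 96377091), had 912, 973 and 941 normalized counts with DMSO and 1211, 1301 and 1239 in BRL-50481, a log2 fold change of 0.41 with a standard error of 0.0624 (limma, adjusted p = 9.28e-05). For NCAPD2 and NCAPH, too, every BRL-50481 library lay above every DMSO library. The log2 ratio of NCAPG to NCAPH within a library was 1.28 ± 0.0927 in DMSO and 2.24 ± 0.0565 in BRL-50481, so that the subunits of this complex did not rise in proportion.

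Of the 3 subunits particular to condensin II, 2 rose and 1 did not pass the test (median log2 fold change 0.25). NCAPG2, the counterpart of NCAPG (chromosome 7, 158631169 to 158704804), had 4779, 4398 and 4595 normalized counts with DMSO and 5806, 5714 and 5806 in BRL-50481, a log2 fold change of 0.33 with a standard error of 0.0483 (limma, adjusted p = 6.14e-05). NCAPD3, the counterpart of NCAPD2 (chromosome 11, 134150113 to 134225504), had 2995, 2547 and 2696 normalized counts with DMSO and 3223, 3232 and 3287 in BRL-50481, a log2 fold change of 0.25 with a standard error of 0.0610 (limma, adjusted p = 0.00371). Neither gene's groups overlapped, and DMSO replicate 1 was the highest of its group for both. NCAPH2, the kleisin of condensin II (chromosome 22, 50508224 to 50524780), had 698, 747 and 767 normalized counts with DMSO and 686, 771 and 767 in BRL-50481. Its groups overlapped, and the log2 fold change of 0.01 (95% interval −0.16 to 0.17, adjusted p = 0.952 in limma) leaves a change of 0.898-fold to 1.12-fold within the interval. Exons of NCAPH2 share 855 bases with an unnamed lncRNA gene on the same strand in GENCODE 44, so that its value may include or lose reads there.

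TOP2A and MKI67 rose strongly. TOP2A (chromosome 17, 40388525 to 40417896), also the target of the drugs etoposide and doxorubicin, had 11804, 10025 and 10725 normalized counts with DMSO and 22586, 21651 and 22118 in BRL-50481, a log2 fold change of 1.03 with a standard error of 0.0566 (limma, adjusted p = 1.38e-08). MKI67 (chromosome 10, 128096659 to 128126423) had 6811, 5079 and 5540 normalized counts with DMSO and 14588, 14572 and 14568 in BRL-50481, a log2 fold change of 1.34 with a standard error of 0.0813 (limma, adjusted p = 3.40e-08). The DMSO libraries spread widely for MKI67, with replicate 1 highest, while the BRL-50481 libraries lay close together (SDs of 897 and 10.6 normalized counts). Every BRL-50481 library exceeded every DMSO library by a wide margin for both genes. In all, every BRL-50481 library lay above every DMSO library for 9 of the 10 genes, and over all genes tested 31.9% showed such a separation upwards and 32.3% downwards.

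**Figure D1:**
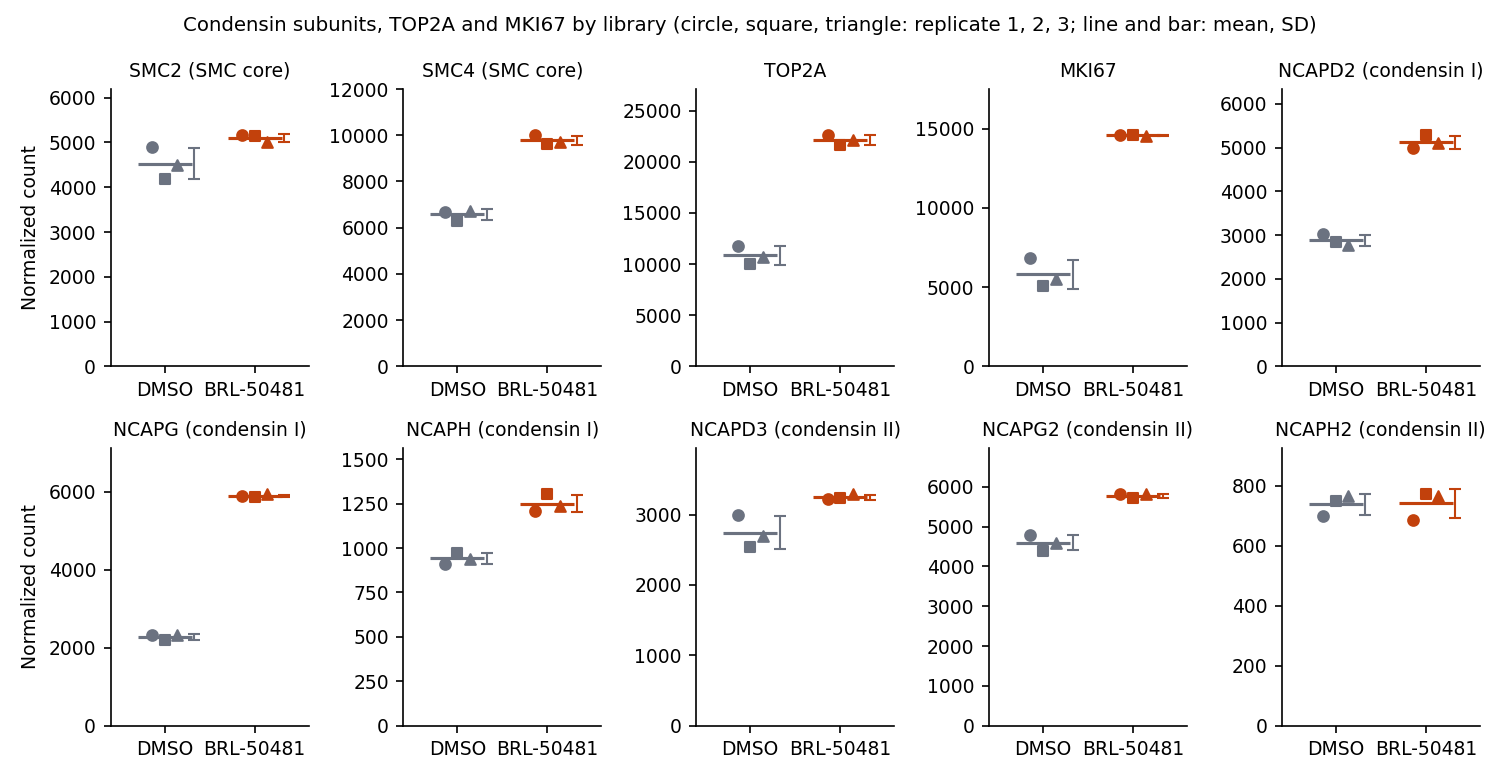
Normalized counts of the 10 genes (vertical axes, each from 0) in the 3 DMSO and 3 BRL-50481 libraries, with a line at the mean and a bar of 1 SD. The BRL-50481 libraries lie above the DMSO libraries in 9 of the 10 panels, and in the NCAPH2 panel the groups overlap.

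Fold changes can move with the length and base composition of a transcript, and MKI67 is long, with a canonical transcript of 12716 bases against a median of 3173 over the genes tested. When the dependence of each library's values on length and GC content was removed, MKI67 had a log2 fold change of 1.03, TOP2A 0.89, NCAPG 1.26, NCAPD2 0.73, SMC4 0.44, NCAPH 0.27 and NCAPG2 0.24, and all 7 remained called (largest adjusted p = 0.00188 in limma, for NCAPH). SMC2 (0.03, adjusted p = 0.475 in limma) and NCAPD3 (0.06, adjusted p = 0.118 in limma) were no longer called, which leaves 7 of the 10 genes higher. NCAPH2 stood at 0.04. The correction moved the median of all genes from 0.01 to −0.04. With it, 14736 genes were tested, of which 4169 were higher and 5517 lower.

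**Figure D2:**
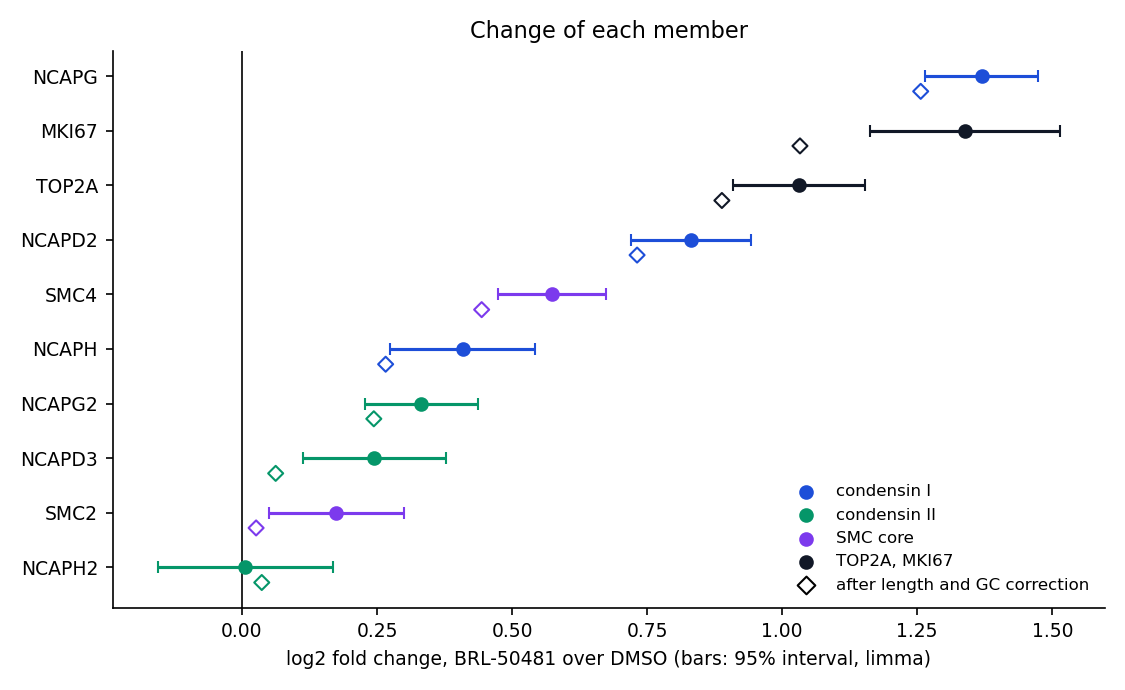
Log2 fold change of each gene, BRL-50481 over DMSO, with its 95% interval from limma (horizontal axis), coloured by complex, and open diamonds after the correction for transcript length and GC content. NCAPG, MKI67 and TOP2A lie above 1 before the correction, and the condensin II subunits and SMC2 lie below 0.34.

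Condensin I was compared with condensin II through the 3 pairs of counterpart subunits, as the log2 ratio of normalized counts (1 added) within each library. The ratio of NCAPG to NCAPG2 was −1.04, −1.0 and −0.98 in DMSO and 0.02, 0.04 and 0.03 in BRL-50481, a difference of 1.04. The ratio of NCAPD2 to NCAPD3 was 0.01, 0.16 and 0.05 in DMSO and 0.63, 0.71 and 0.63 in BRL-50481, a difference of 0.59. The ratio of NCAPH to NCAPH2 was 0.39, 0.38 and 0.29 in DMSO and 0.82, 0.76 and 0.69 in BRL-50481, a difference of 0.40. All 3 ratios were thus higher in every BRL-50481 library than in every DMSO library, each with a two-sided exact permutation p of 0.1 (0.1 after adjustment over the 3 pairs), the smallest that this test allows with 3 libraries against 3, so that it cannot reach 0.05. After the correction for length and GC content, the difference for NCAPH over NCAPH2 was 0.23, while those for NCAPG over NCAPG2 (1.01) and NCAPD2 over NCAPD3 (0.67) were close to the uncorrected values.

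Averaged over subunits on the log2 scale, condensin I lay below condensin II in DMSO, at −0.21, −0.16 and −0.21, and above it in BRL-50481, at 0.49, 0.50 and 0.45. The groups were 0.61 apart at their nearest libraries, against SDs of 0.0330 and 0.0256 within the groups. This mean is given as a description with no test, and its sign depends on transcript lengths, which differ between the genes.

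**Figure D3:**
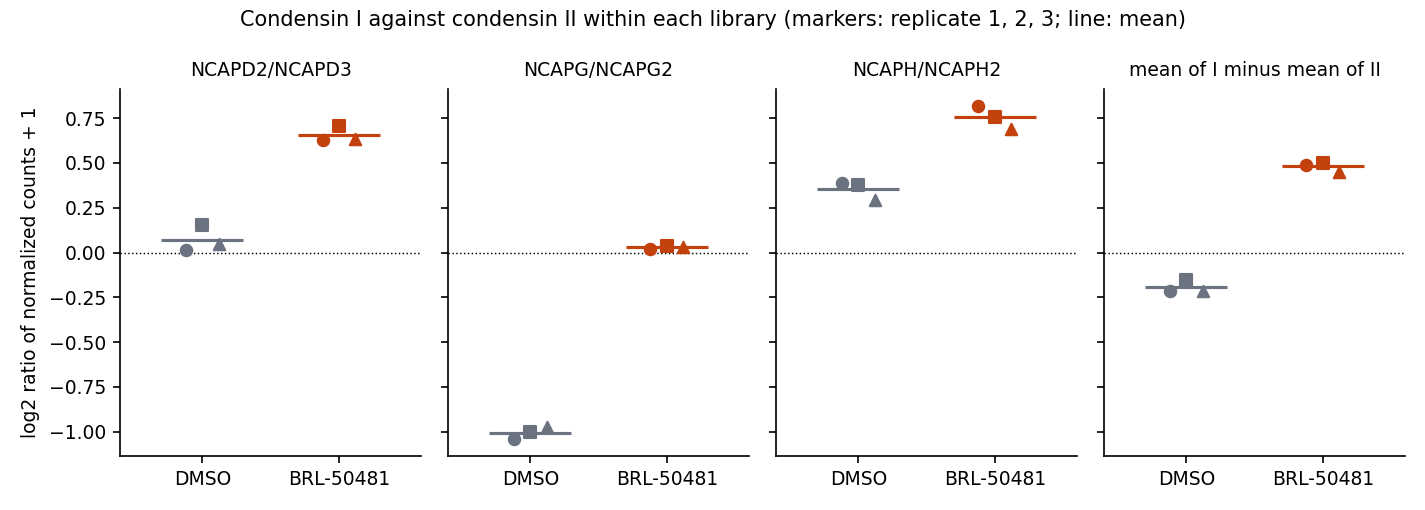
Log2 ratio of each condensin I subunit to its condensin II counterpart within each library, and the mean of the 3 condensin I subunits minus the mean of the 3 condensin II subunits (vertical axis, log2 of normalized counts plus 1). In each panel all 3 BRL-50481 libraries lie above all 3 DMSO libraries.

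Levels of different genes were compared per kilobase of canonical transcript. In DMSO, TOP2A stood highest at 1905 ± 157 normalized counts per kilobase (SD, n = 3), followed by SMC4 (1285 ± 45.5), NCAPG2 (1134 ± 47.0), SMC2 (764 ± 59.7), NCAPD2 (597 ± 25.8), NCAPG (498 ± 17.1), MKI67 (457 ± 70.5), NCAPD3 (373 ± 31.0), NCAPH2 (221 ± 10.7) and NCAPH (156 ± 5.05). Libraries of neighbours overlapped for NCAPG with MKI67 and for MKI67 with NCAPD3, and did not for the other neighbours. In BRL-50481, TOP2A (3884 ± 82.1), SMC4 (1913 ± 37.1) and NCAPG2 (1426 ± 13.1) kept their places by canonical length, and NCAPG (1285 ± 6.73) and MKI67 (1146 ± 0.833) moved up to places 4 and 5, ahead of NCAPD2 (1062 ± 30.8) and SMC2 (860 ± 14.8). NCAPD3 (441 ± 4.66), NCAPH2 (222 ± 14.4) and NCAPH (207 ± 7.67) remained lowest, and the last pair overlapped.

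With canonical lengths, the kleisins NCAPH and NCAPH2 were thus the least abundant transcripts of their complexes per kilobase in both groups. The order depends on the length used. With the union of all annotated exons as the length, NCAPD3 (147) lay below NCAPH2 (165) in DMSO, and in BRL-50481 NCAPG (1216) lay above SMC4 (1199), NCAPG2 (813) was at place 5 and NCAPH2 (166) was lowest, below NCAPD3 (174) and NCAPH (191). TOP2A was highest with either length. The mean level per kilobase of the 3 condensin I subunits over that of the 3 condensin II subunits was 0.725 ± 0.0146 in DMSO and 1.22 ± 0.0192 in BRL-50481 (SD, 3 libraries per group). With the union of exons, it was 1.11 in DMSO and 1.91 in BRL-50481. Which complex is the more abundant in DMSO therefore depends on the length used, whereas the ratio was higher in BRL-50481 with either length. The transcripts that these cells use were not measured.

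**Figure D4:**
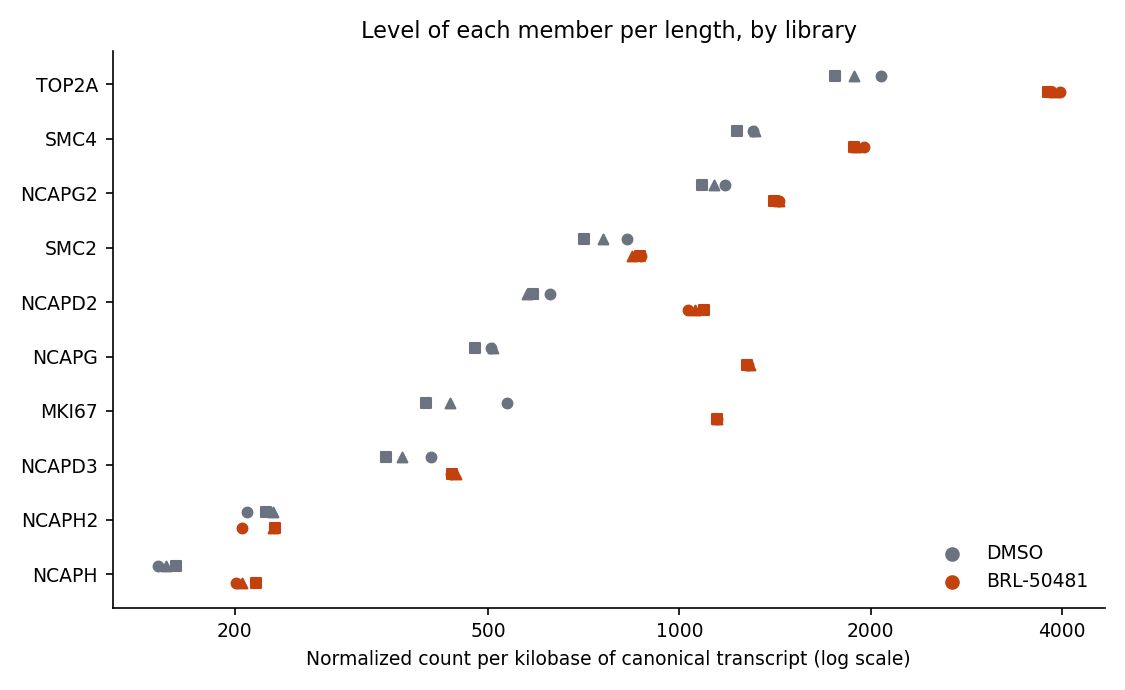
Normalized count per kilobase of canonical transcript (horizontal axis, log scale) for each gene in each library, ordered by the DMSO mean. TOP2A is highest and NCAPH lowest in both groups, and NCAPG and MKI67 move past NCAPD2 and SMC2 in BRL-50481.

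Related genes were read against this pattern by counts from lists written from general knowledge, but with earlier results of these data known. Of 17 kinases and chromatin partners of mitotic chromosome assembly, 14 were higher and 1 lower (median log2 fold change 0.61). Of all genes tested, 28.9% were higher and 29.8% lower. CCNB1, the cyclin that activates CDK1 at mitotic entry, rose most (2334 ± 69.7 to 7315 ± 148 normalized counts, log2 fold change 1.65, adjusted p = 1.30e-10 in limma), and CDK1 (0.30) and the checkpoint kinase BUB1 (0.75) were also higher. VRK1, a kinase that phosphorylates BANF1 and histone H3, was the member that fell (−0.60), and KIF22 (0.06) and HASPIN (−0.12) did not pass the test. The rises ran from AURKB (0.17), the kinase of the chromosomal passenger complex, to CCNB1.

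Other SMC complexes and topoisomerases were mixed. Over all genes tested, 28.9% were higher and 29.8% lower, and counts near these shares do not set a list apart. Of 16 cohesin genes, 7 were higher and 3 lower, with a median of 0.09 (0.17 without DMSO replicate 1). RAD21, the cohesin kleisin, was higher (log2 fold change 0.36), while SMC3 (−0.03) and PDS5A (0.08), a regulator of cohesin release, did not pass the test. ESPL1, the separase that cuts cohesin at anaphase, rose most (0.61), and ESCO2, which acetylates SMC3 in S phase, fell most (−0.61). After the correction for length and GC content, 7 cohesin genes were lower and 6 higher, and the median was −0.06. Over all 14736 genes tested with this correction, 5517 were lower, 4169 were higher and the median was −0.04. The negative median thus does not set the cohesin genes apart. Of 5 genes of the SMC5/6 complex, 2 were higher, and 1 without BRL-50481 replicate 1 or 3. SMC6 was higher (0.26), and SMC5 (0.01) and NSMCE4A (0.17) did not pass the test. Of 4 other nuclear topoisomerases, TOP2B, the paralog of TOP2A that is expressed throughout the cell cycle, rose most (3016 ± 317 to 5270 ± 65.0 normalized counts, log2 fold change 0.81, adjusted p = 4.23e-07 in limma), TOP1 rose (0.20) and TOP3A fell (−0.39), and a second gene was lower without DMSO replicate 3. The log2 ratio of TOP2A to TOP2B within a library was 1.85 ± 0.0321 in DMSO and 2.07 ± 0.0439 in BRL-50481.

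Replication genes moved the other way. Their list held licensing genes, such as MCM7 and MCM3, and also genes that act after licensing, such as CDC45 and PCNA. Of 14, 13 were lower and 0 higher (median log2 fold change −0.76), where 29.8% of all genes tested were lower and 28.9% higher. PCNA, the sliding clamp of DNA polymerases, fell most (7049 ± 373 to 2967 ± 62.4 normalized counts, log2 fold change −1.25, adjusted p = 1.83e-09 in limma), and the helicase subunits MCM7 (−0.84) and MCM3 (−1.14) fell as well. CDC45 (0.06) did not pass the test. E2F1, a transcription factor of S phase genes, fell by 1.15 on the log2 scale (adjusted p = 3.40e-08 in limma). MKI67 and TOP2A thus rose in the same libraries in which these genes fell.

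**Figure D5:**
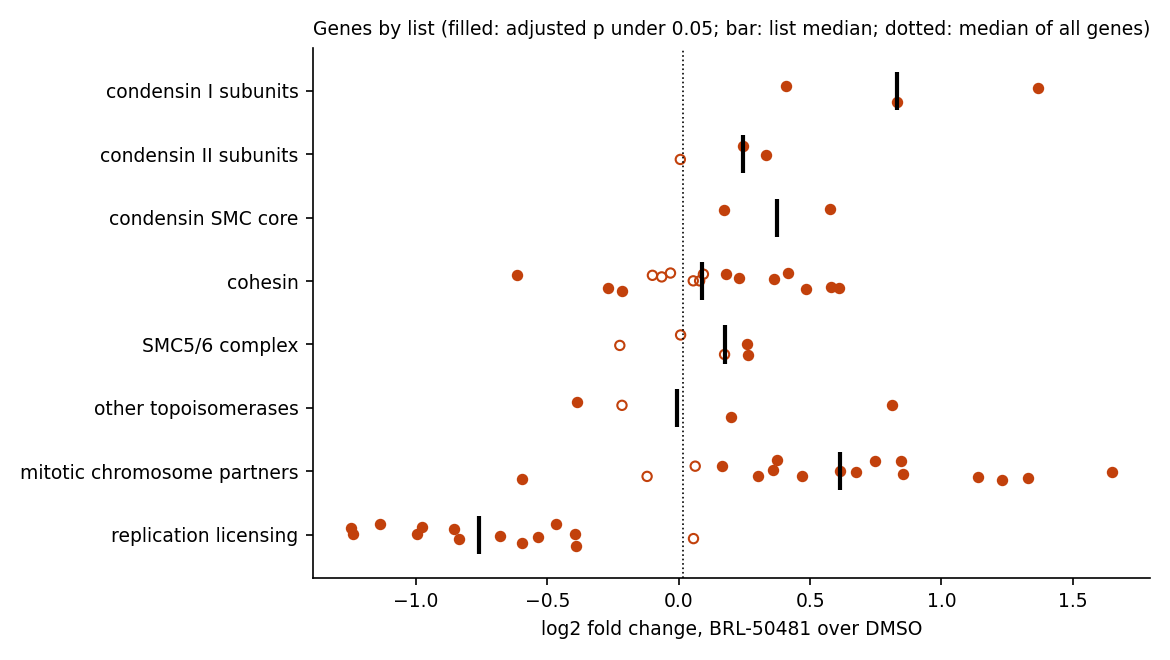
Log2 fold change of each listed gene, BRL-50481 over DMSO (horizontal axis), with 1 row per list, filled points at an adjusted p under 0.05, a bar at the list median and a dotted line at the median of all genes tested. The mitotic chromosome partners lie mostly to the right (14 of 17 higher). The replication genes, in the row labelled replication licensing, lie to the left (13 of 14 lower).

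Genes whose values followed these most closely were sought in the 11445 genes whose mean normalized count reached 100, by the root mean square difference of log2 values centred on each gene's mean over the 6 libraries. Nearest to MKI67 were ADGRF5 (0.0353), MYLK (0.0392), DYNC2H1 (0.0473), CENPE (0.0607) and ASPM (0.0622), of which CENPE is a kinetochore motor and ASPM a spindle pole protein. Nearest to TOP2A were RASA1 (0.0329), DDX58 (0.0339), SASH1 (0.0366), IFIT2 (0.0406) and GTF2A1 (0.0415), of which DDX58 and IFIT2 are interferon-induced. Nearest to the mean of the condensin I subunits were TBCD (0.0184), CCDC80 (0.0233), CCNA2 (0.0246), ZNF207 (0.0257) and PLAU (0.0266), of which CCNA2 is the cyclin of S phase and early mitosis. Among the 10 genes themselves, SMC2 and NCAPD3 were nearest to each other (0.0432), followed by NCAPD3 with NCAPG2 (0.0568) and NCAPH with NCAPG2 (0.0817). With 6 libraries in 2 groups, genes with a group difference of similar size lie close by construction.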

How the data were processed

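RNA-seq of 6 MDA-MB-231 libraries, 3 DMSO and 3 BRL-50481, was analysed from 1 table. Per the study's methods and the submitters' processing notes, the authors aligned single-end reads to hg38 with STAR 2.7.1a, counted them per gene with HTSeq on the reverse strand with UCSC gene models, removed genes with low values and normalized with DESeq2 1.28. The deposited signal of each gene is its read count divided by the size factor of its library. The authors' own fold changes and p-values, also in the table, were not used. The labels describe oligo-dT selection and the series record ribosomal RNA depletion.

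The 15246 genes with 3 or more libraries at a normalized count of 4 or higher were tested on log2 of the normalized count plus 1 with limma 3.58.1 (trend) in R 4.3.3, with the groups as the only term and Benjamini-Hochberg adjustment over all genes tested. The fit was also run on simulated counts drawn with the same spread in every library. The libraries here differed in spread, which that run does not cover. Pair ratios were tested with scipy 1.17.1 (exact permutation). Lengths, positions and overlaps came from GENCODE 44 on hg38 and were matched by symbol or older symbol for 96.5% of the genes. Genes named were the 10 members, the 3 most abundant and the most changed called genes of each list, PDE7A, E2F1 and the 5 genes nearest to a member's pattern, and a gene outside this rule (AURKB, KIF22, HASPIN, CDC45) was named after its values were seen. Members and lists were chosen with earlier results of these data known. Alternatives were pseudocounts of 0.5 and 4, other filters, quantile normalization, median centring, no trend, the replicate number as a block, a loess correction (span 0.5) for length and GC content and leaving out each library. Reads without molecular identifiers are not independent molecules, so the comparison of replicates with counting noise covers counting error only.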

Additional observations from a re-analysis of the deposited data

How the results depend on the processing

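Over the 10 genes, 148 of 160 alternative values kept direction and side of the threshold. Of 504 values of the other results, 466 were labelled the same. For counts this meant within 1.5 times, for list medians the same sign and within 1 SD of a library, and for pair ratios the same sign only. Other filters, no trend and the replicate block left fold changes and list medians as they were. Both shares thus include values that could not move. SMC2 lost its call without a trend in the fit (adjusted p = 0.0826 in limma), with the length and GC correction, with and without the replicate block, and in 4 of 6 fits without 1 library. NCAPD3 lost its call with the correction. NCAPH2 changed sign without DMSO replicate 1 or BRL-50481 replicate 2 or 3 (range without 1 library −0.033 to 0.061).

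The correction for length and GC content, with or without the replicate block, gave medians of 0.73 for condensin I, 0.062 for condensin II, 0.23 for the SMC core, −0.056 for cohesin and 0.50 for the mitotic partners. It left 1 condensin II subunit and 1 SMC core subunit higher, and set condensin I minus condensin II at 0.64. With it, 7 cohesin genes were lower and 6 higher (5 with the replicate block), and 2 SMC5/6 genes were lower and 3 higher. Over all 14736 genes tested with it, 4169 were higher and 5517 lower, with a median of −0.039. Without a trend, 1 SMC core and 1 SMC5/6 gene were higher. With quantile normalization, 1 SMC5/6 gene and 2 other topoisomerases were lower. With median centring the other topoisomerases had a median of 0.022, where the reported value was −0.01. With union exons as length, condensin I over II was 1.11 in DMSO and 1.91 in BRL-50481. The causes of these shifts were not tested.

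Without 1 library, the number of SMC core genes higher ranged from 1 to 2, of SMC5/6 genes higher from 1 to 3 and lower from 0 to 1, and of other topoisomerases lower from 1 to 2. The cohesin median ranged from 0.053 to 0.17 and that of the other topoisomerases from −0.051 to 0.035. Over all genes, 3751 to 4876 were higher and 4027 to 4933 lower.

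Deviations of DMSO and BRL-50481 libraries with the same number correlated at 0.121, 0.104 and 0.0514, so the numbers were not taken as pairs, although 5 of 6 libraries correlated best with their own number. With the replicate block, 4440 genes were higher and 4589 lower, against 4400 and 4546, with 9 of the 10 genes higher. Count-based tests planned as alternatives were not run. With 3 libraries a group, the pair ratios cannot pass an exact test at 0.05. mRNA levels say nothing of protein levels or of assembled complexes.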
